A study of Mus musculus with 24 samples.

Results

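Oncofetal genes are active in the fetal liver and its hepatoblasts, the progenitors of hepatocytes and bile duct cells, and are mostly silent in the adult organ. The genes described here were taken by their name in the count and TPM tables, 9 of 49315 genes: Afp, Igf2, H19, Gpc3, Dlk1, Igf2bp1, Igf2bp2, Igf2bp3 and Lin28b. They are a known class, and the rule that names them uses no measured value, but the class was picked with earlier results of these data known. The question was in how many libraries of each group each gene was high, since a single library can carry a group mean.

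RNA sequencing of mouse liver tissue gave 24 libraries in 4 groups of 6. CCA.Mdr2-/- livers (Mdr2-/- tumour-bearing livers) lacked Abcb4, also called Mdr2, the transporter that exports phospholipid into bile, and carried AKT and YAP1, oncogenes that a transposon had put into the genome and that in this model lead to cholangiocarcinoma, a tumour of bile duct cells. Ctrl.Mdr2-/- livers (Mdr2-/- controls) were of the same genotype with an empty transduction. CCA.Wild-type livers (tumour-bearing wild-type livers) carried AKT and YAP1 in wild-type mice, and Ctrl.Wild-type livers (wild-type controls) the empty transduction in wild-type mice. Every group had thus been transduced. The labels give neither age, sex nor strain, name no promoter for the oncogenes, and do not say which part of a tumour-bearing liver was tumour. The design text calls the tissues individual without stating that each came from its own animal, so p-values speak only for the spread among these libraries, which may be technical.

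Total counts were 20976459 to 30288385 per library. Abcb4 was at 21.7 to 59.3 CPM (counts per 1000000 counts of the TMM-scaled library) in Mdr2-/- tumour-bearing livers and 23.8 to 41.6 CPM in Mdr2-/- controls, against 165 to 361 CPM in tumour-bearing wild-type livers and 244 to 377 CPM in wild-type controls. The summed level of 12 hepatocyte markers was 39600 to 83000 CPM in Mdr2-/- tumour-bearing livers and 98900 to 113000 CPM in Mdr2-/- controls, and 64400 to 115000 CPM in tumour-bearing wild-type livers and 141000 to 170000 CPM in wild-type controls. The summed level of 10 bile duct (cholangiocyte) markers was 1110 to 4060 CPM in Mdr2-/- tumour-bearing livers and 84.2 to 343 CPM in Mdr2-/- controls, and 167 to 1400 CPM in tumour-bearing wild-type livers and 68.8 to 141 CPM in wild-type controls. Marker levels thus moved with the groups, and in bulk RNA fewer cells of a type and less RNA per cell cannot be told apart. The part of this shift in any result given here was not tested. Of 3 embryonic globin genes, which would mark blood cells of the embryo, Hbb-bh1 and Hba-x were at 0 in all 24 libraries.

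The genes form a few linked units. Afp encodes alpha-fetoprotein, the main plasma protein of the fetus, and lies next to its paralog Alb, which takes its place after birth. Igf2, a fetal growth factor made from the paternal allele, and H19, a long non-coding RNA made from the maternal one, are imprinted neighbours that share enhancers. Gpc3 is a heparan sulfate proteoglycan of the cell surface and a histological marker of hepatocellular carcinoma, Dlk1 a membrane protein of hepatoblasts, and Igf2bp1 to Igf2bp3 are RNA-binding proteins that bind Igf2 and other mRNAs. Lin28b blocks the maturation of the let-7 microRNAs, which themselves repress fetal mRNAs such as those of Lin28b, Igf2bp1 and Hmga2.

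Regulatory and small RNA sequences of these units are shown from RefSeq, mouse assembly GRCm38.p6, which held a promoter window for 7 of the 9 genes but none for H19 or Igf2bp1. The counts were made on mm39, so these coordinates belong to the sequences alone. The windows of Afp (chr5:90490464-90490713, plus strand), of Gpc3 (chrX:52613975-52614224, minus strand) and of one of the 4 Igf2 starts (chr7:142657497-142657746, minus strand) are the 250 bases before the transcript start, printed 5′ to 3′ along the gene. They are shown because these genes reached their highest level in the same library. So did Igf2bp3, whose window, with 0 GC boxes and 21 CG, is not printed. The Igf2 window is the one of the 4 with the most GC boxes.
Afp: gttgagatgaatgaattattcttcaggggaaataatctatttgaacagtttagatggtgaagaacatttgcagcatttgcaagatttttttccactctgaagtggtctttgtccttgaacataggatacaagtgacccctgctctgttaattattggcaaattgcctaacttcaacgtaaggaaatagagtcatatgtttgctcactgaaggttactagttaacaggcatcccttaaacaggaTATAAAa
Gpc3: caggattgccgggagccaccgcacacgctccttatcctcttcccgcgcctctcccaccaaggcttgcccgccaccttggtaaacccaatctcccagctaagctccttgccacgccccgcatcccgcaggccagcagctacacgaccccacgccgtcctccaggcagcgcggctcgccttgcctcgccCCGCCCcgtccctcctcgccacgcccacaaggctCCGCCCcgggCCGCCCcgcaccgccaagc
Igf2: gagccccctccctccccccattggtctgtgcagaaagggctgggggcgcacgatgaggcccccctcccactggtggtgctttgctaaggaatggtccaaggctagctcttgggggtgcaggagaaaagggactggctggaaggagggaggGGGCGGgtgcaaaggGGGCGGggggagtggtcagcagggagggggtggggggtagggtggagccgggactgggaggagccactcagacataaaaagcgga
Capitals mark exact matches on either strand to 2 motifs. The TATA box, where the basal transcription machinery binds, was searched as TATAAA. The GC box, a site of Sp1 family proteins, was searched as GGGCGG. No match overlapped another. The Afp window held 1 TATA box, 7 to 2 bases before the start, and 1 CG dinucleotide. The Gpc3 window held 3 GC boxes and 25 CG, and the Igf2 window 2 GC boxes and 6 CG. Among all 32851 windows of the table, 12.4% held the TATA box and 32.7% the GC box, and the median was 6 CG. A match of letters is a description of the window and not a site of binding.

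The microRNAs of the imprinted pair H19 and Igf2, and members of the let-7 family that Lin28b blocks, are shown with their seed, the bases 2 to 8 that pair with targets, in capitals.
miR-675-5p: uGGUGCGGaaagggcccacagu
miR-675-3p: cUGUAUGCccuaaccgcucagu
miR-483-5p: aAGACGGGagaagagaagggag
miR-483-3p: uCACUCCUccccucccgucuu
let-7a-5p: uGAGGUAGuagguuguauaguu
let-7b-5p: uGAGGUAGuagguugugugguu
let-7e-5p: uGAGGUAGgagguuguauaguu
miR-675 lies inside H19 and miR-483 inside Igf2, and the 4 arms share no seed. Of 10 let-7 guide strands in the table, 9 shared the seed of let-7a. The gene entries of Mir675 and Mir483 held 0 counts in all 24 libraries, in libraries made from total RNA that was fragmented and not selected for small RNA.

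Across the 9 genes and 24 libraries the data showed 3 patterns. Gpc3 and Igf2bp1 were higher in every tumour-bearing liver than in every control, in both genotypes. Afp and Igf2 were very high in 1 of the 12 tumour-bearing livers, replicate 3 of Mdr2-/-. In the other 11 Igf2 overlapped the controls, and Afp was at most 18.2 CPM. Dlk1, Igf2bp2, Igf2bp3 and Lin28b remained at low levels, and H19 varied most among control livers.

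**Figure D1:**
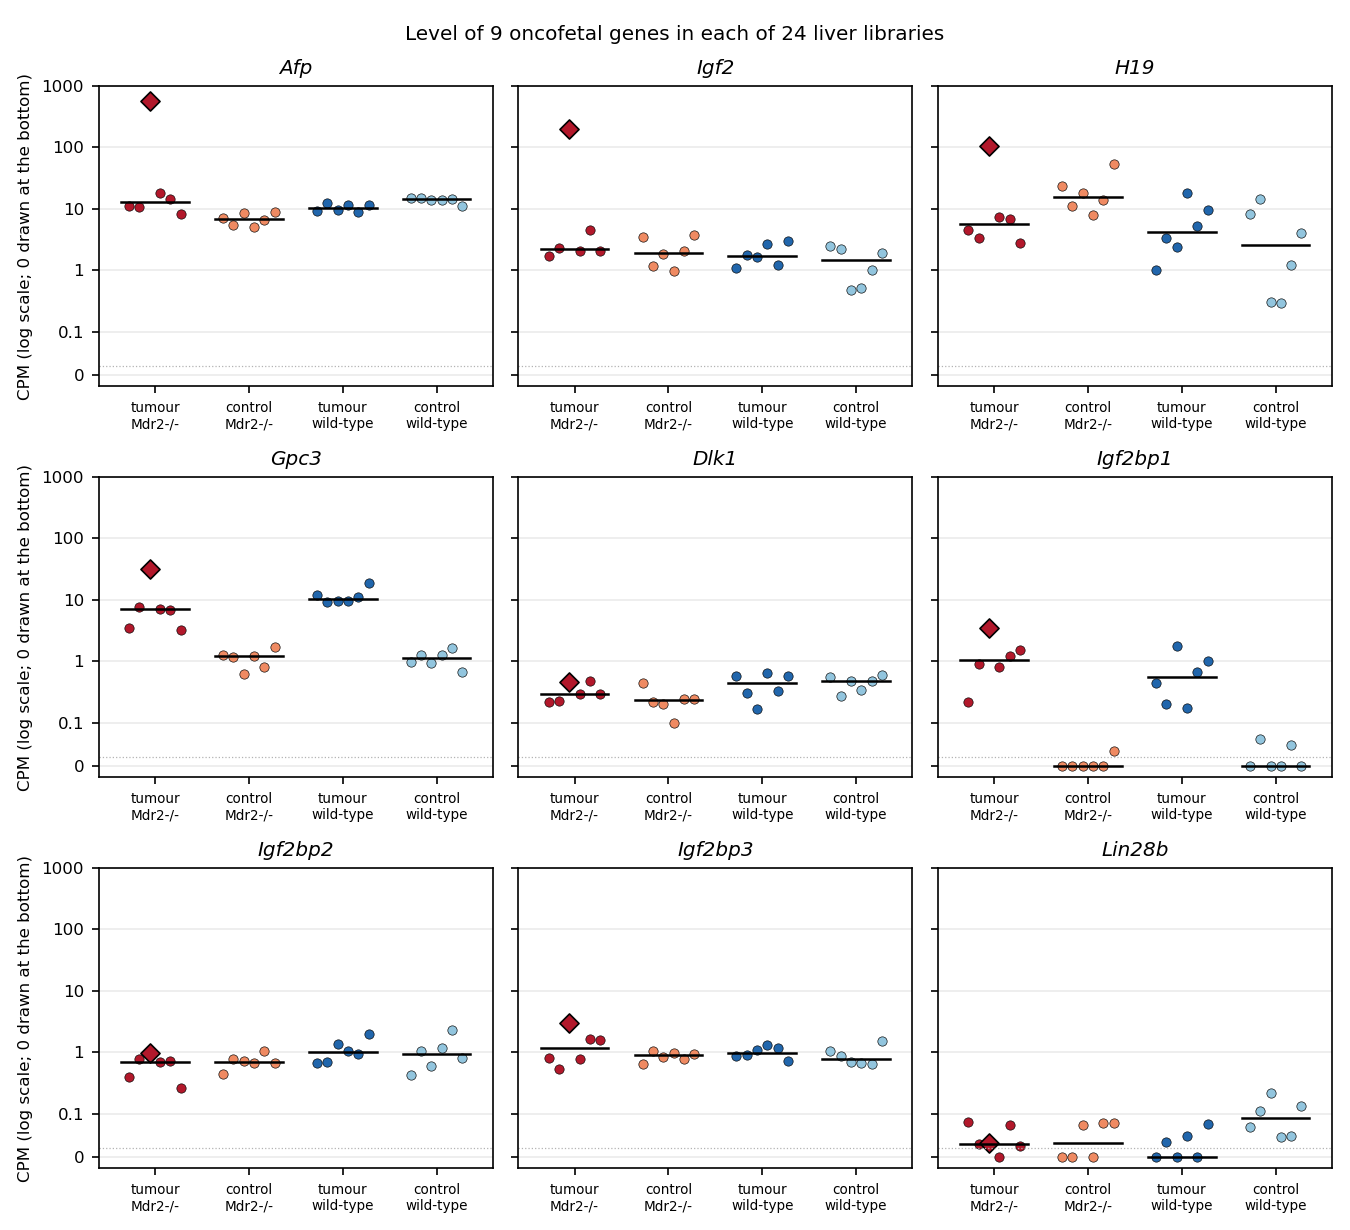
CPM on a log scale of each gene in every library, by group, with the group median as a line. A diamond marks replicate 3 of the Mdr2-/- tumour-bearing livers, and libraries with 0 counts are drawn at the bottom below the dotted line. Replicate 3 stands at 564 CPM for Afp and 202 CPM for Igf2, while all 12 tumour-bearing livers lie above all 12 controls for Gpc3 and Igf2bp1.

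Levels of different genes can be set side by side per length, in TPM. In Mdr2-/- tumour-bearing livers the order by median was Afp at 10.2 TPM, Gpc3 at 6.9 TPM, H19 at 5.67 TPM and Igf2 at 1.03 TPM, and the ranges of neighbours in this order overlapped. In wild-type controls the median was 6.82 TPM for Afp, 1.93 TPM for H19, 0.643 TPM for Gpc3 and 0.454 TPM for Igf2. It was 0.208 TPM for Igf2bp2, 0.156 TPM for Igf2bp3, 0.142 TPM for Dlk1 and 0.0142 TPM for Lin28b, and Igf2bp1 had a median of 0. Neighbours in this order had overlapping ranges, such as 5.71 to 8.13 TPM for Afp and 0.209 to 9.1 TPM for H19, except for Dlk1 (0.0731 to 0.179 TPM) and Lin28b (0.008 to 0.039 TPM).

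Gpc3 was higher in tumour-bearing livers of both genotypes. It was at 3.19, 7.08 and 32.1 CPM (lowest, median and highest of 6) in Mdr2-/- tumour-bearing livers, against 0.634, 1.21 and 1.72 CPM in Mdr2-/- controls. In wild-type mice it was at 9.35, 10.3 and 18.8 CPM in tumour-bearing livers, against 0.681, 1.12 and 1.66 CPM in controls. The groups did not overlap in either genotype, and replicate 3 of Mdr2-/- and replicate 6 of wild-type were the highest tumour-bearing libraries. The log2 fold change was 3.14 ± 0.44 (SE) in Mdr2-/- livers (edgeR adjusted p = 2.26e-05) and 3.36 ± 0.45 in wild-type livers (adjusted p = 5.19e-06), with 6 libraries a group. Without replicate 3 of Mdr2-/-, the Mdr2-/- rise was 2.32 ± 0.28 (adjusted p = 6.45e-06).

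The comparison of Gpc3 between genotypes turned on replicate 3. Over all libraries the tumour effects differed by -0.22 ± 0.60 on the log2 scale, Mdr2-/- minus wild-type (adjusted p = 0.812). In CPM the other 5 Mdr2-/- tumour-bearing livers, at 3.19 to 7.8, lay below all 6 tumour-bearing wild-type livers. In TPM they overlapped, with Mdr2-/- replicate 2 at 7.38 and wild-type replicate 2 at 6.28. Without replicate 3 the difference of tumour effects was -1.05 ± 0.39 (adjusted p = 0.0492), and Mdr2-/- against tumour-bearing wild-type livers gave -1.03 ± 0.26 (adjusted p = 0.0154). Replicate 3 was singled out as the highest library, so leaving it out was bound to lower the Mdr2-/- level. These values are therefore a description. Without Mdr2-/- tumour-bearing replicate 1 and wild-type tumour-bearing replicate 6, the highest of its group, the difference was 0.14 ± 0.58 (adjusted p = 0.896). In controls Gpc3 was at 1.14 ± 0.383 CPM in Mdr2-/- and 1.13 ± 0.339 CPM in wild-type mice (SD, n = 6 each).

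Igf2bp1, a fetal mRNA-binding protein, was counted in every tumour-bearing liver and barely at all in controls. It was at 0.221, 1.06 and 3.48 CPM (lowest, median, highest) in Mdr2-/- tumour-bearing livers, which hold 255 counts, while the 6 Mdr2-/- controls hold 1 count in all. In wild-type mice it was at 0.173, 0.554 and 1.8 CPM in tumour-bearing livers, with 118 counts, while the 6 controls hold 2 counts. No tumour-bearing library fell to the level of any control. After allowing for depth, the ratio of counts in tumour-bearing livers to controls was 233 in Mdr2-/- mice (95% interval 41.5 to 9260) and 47.4 in wild-type mice (12.8 to 396). These exact intervals cover counting error only. Igf2bp1 passed the filter on low counts through its tumour-bearing libraries alone, so that a tested difference was bound to follow, and its calls in Mdr2-/- livers (edgeR adjusted p = 6.85e-06) and in wild-type livers (edgeR adjusted p = 0.000157) are given as a description. The difference between these effects was not called (edgeR adjusted p = 0.497). On log2(TPM + 1), where a low gene can move little, the wild-type change was 0.20 and not called (limma adjusted p = 0.103). Mdr2-/- tumour-bearing livers averaged 1.36 ± 1.12 CPM and wild-type ones 0.715 ± 0.615 CPM, with overlapping ranges.

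Among Mdr2-/- tumour-bearing livers Afp was raised by a great deal in replicate 3, and by a little or not at all in the others. The 6 libraries were at 11.1, 10.9, 564, 18.2, 14.7 and 8.25 CPM (replicates 1 to 6), against 5.14, 6.96 and 8.96 CPM (lowest, median, highest) in Mdr2-/- controls. Replicate 3 held 89.9% of the summed level of its group, and 5 of the 6 tumour-bearing libraries lay above all 6 controls in CPM. In TPM, tumour-bearing replicates 1 and 6 were at 6.17 and 6.79, below the highest Mdr2-/- control at 6.91. The log2 fold change was 3.89 ± 0.87 (adjusted p = 0.00258) with all libraries. Without replicate 3, as a description, it was 0.84 ± 0.17 (adjusted p = 0.00144). With voom weights and all libraries it was 1.95 (limma voom adjusted p = 0.0621). In wild-type mice Afp was at 8.92, 10.5 and 12.3 CPM in tumour-bearing livers, against 11.2, 14.4 and 15.0 CPM in controls, a log2 fold change of -0.41 ± 0.79 (adjusted p = 0.737). Fitted without Mdr2-/- replicate 3, which enters the shared estimate of spread, this was -0.41 ± 0.17 (adjusted p = 0.0702). Fitted with the 12 wild-type libraries alone it was called, at -0.41 ± 0.13 (edgeR adjusted p = 0.0304).

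In the edgeR fit of all libraries the Afp response differed between genotypes, but not under every setting. The tumour effect in Mdr2-/- minus that in wild-type livers was 4.30 ± 1.15 (adjusted p = 0.011), and 1.25 ± 0.24 without replicate 3 (adjusted p = 0.00107). As that library was singled out for its high level, the value without it is a description. With all libraries the difference was not called on log2(TPM + 1), on log2(TPM + 0.1), with voom weights or with the range of the sample title numbers as a covariate. No DESeq2 adjusted p was given for Afp.

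The controls of the genotypes were also set apart by their Afp level. All 6 Mdr2-/- controls (5.14 to 8.96 CPM) were below all 6 wild-type controls (11.2 to 15.0 CPM). Of all genes tested, 10.6% had Mdr2-/- controls below wild-type controls with no overlap. The log2 fold change, Mdr2-/- over wild-type controls, was -0.99 ± 0.80 (adjusted p = 0.314) in the model of all libraries, -0.98 ± 0.17 (adjusted p = 6.2e-05) without tumour-bearing replicate 3 and -0.99 (adjusted p = 9.79e-05) with the 12 control libraries alone. The size of this gap depended on scaling. In TPM, Mdr2-/- controls were at 3.32 to 6.91 and wild-type controls at 5.71 to 8.13, which overlap, and the change was -0.68 with total library size and -0.46 on log2(TPM + 1). Among tumour-bearing livers Afp was 3.32 ± 0.85 higher in Mdr2-/- than in wild-type mice (adjusted p = 0.0136), but 0.26 ± 0.17 without replicate 3 (adjusted p = 0.388).

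Genes known to act on Afp moved in part. Zhx2, a homeodomain protein that represses Afp and H19 in the liver after birth, fell in Mdr2-/- tumour-bearing livers, to 12.5, 15.9 and 18.8 CPM (lowest, median, highest), against 20.1, 26.5 and 34.1 CPM in Mdr2-/- controls. The log2 fold change was -0.73 ± 0.19 (adjusted p = 0.00659), against 0.20 ± 0.19 in wild-type livers (adjusted p = 0.478), and the difference between the effects was -0.92 ± 0.27 (adjusted p = 0.0164). A covariate was also fitted, the summed share of 7 nuclear non-coding RNAs, a measure of RNA makeup that differed between libraries. With it the Mdr2-/- change of Zhx2 was -0.06 (adjusted p = 0.884). That share was 4.6 to 7.95% in Mdr2-/- tumour-bearing livers and 1.74 to 4.29% in Mdr2-/- controls. As these ranges do not overlap, no fit with this covariate can tell RNA makeup from the tumour effect in Mdr2-/- livers. In replicate 3 Zhx2 was at 18.8 CPM, the highest of its group. Zbtb20, a zinc-finger repressor of Afp, gave -0.13 ± 0.26 in Mdr2-/- and -0.40 ± 0.26 in wild-type livers (adjusted p = 0.715 and 0.264). Gm43449, a predicted gene that overlaps Afp on the other strand, was at 2.31 CPM in replicate 3 and 1.73 to 3.46 CPM in its group, so its count did not follow that of Afp.

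Igf2 was high in replicate 3 of the Mdr2-/- tumour-bearing livers alone. That library had 202 CPM and 6030 counts, 94.1% of the summed level of its group, and the other 5 had 1.73 to 4.53 CPM. Mdr2-/- controls were at 0.968, 1.94 and 3.79 CPM (lowest, median, highest), tumour-bearing wild-type livers at 1.1, 1.71 and 3.04 CPM and wild-type controls at 0.473, 1.48 and 2.5 CPM. All groups overlapped apart from that library. The log2 fold change in Mdr2-/- livers was 4.01 ± 1.07 (adjusted p = 0.00792), but 0.20 ± 0.41 without replicate 3 (adjusted p = 0.731). With all libraries the call was also lost with voom weights (1.64, adjusted p = 0.227) and on log2(TPM + 1) (1.07, adjusted p = 0.176). Among tumour-bearing livers Igf2 was 4.22 ± 1.08 higher in Mdr2-/- than in wild-type mice (adjusted p = 0.0142), but 0.42 without replicate 3 (adjusted p = 0.6). In wild-type livers it was 0.44 ± 1.09 (adjusted p = 0.801). Igf2os, the antisense transcript of Igf2, had 17 of its 18 counts in that same library. The labels do not say whether strand was kept, so reads of the pair cannot be told apart.

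H19 was the most uneven of the genes between controls. Mdr2-/- controls had 23.8, 11.2, 17.9, 7.91, 13.9 and 54.1 CPM (replicates 1 to 6), and wild-type controls 8.3, 14.3, 0.301, 0.298, 1.22 and 4.0 CPM. In 3 Mdr2-/- controls H19 lay above all wild-type controls, and the log2 fold change, Mdr2-/- over wild-type controls, was 2.21 ± 1.0 (adjusted p = 0.0709). It was called, between 2.15 and 3.42, under 7 of the alternatives other than left-out libraries, among them DESeq2 (2.15, adjusted p = 0.0403), voom (3.41, adjusted p = 0.0175) and log2(TPM + 0.1) (3.42, adjusted p = 0.00258). With the nuclear non-coding covariate it was 1.31 (adjusted p = 0.352).

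In tumour-bearing livers H19 was split. Mdr2-/- tumour-bearing livers had 4.49, 3.37, 105, 7.42, 6.86 and 2.83 CPM (replicates 1 to 6). In CPM, 5 of 6 thus lay below all 6 Mdr2-/- controls and replicate 3 above all of them. In TPM, tumour-bearing replicates 4 and 5 were at 7.73 and 8.01, above the lowest Mdr2-/- control at 7.42. The log2 fold change was 0.02 ± 0.93 (adjusted p = 0.992) with all libraries and -2.11 ± 0.80 (adjusted p = 0.0462) without replicate 3. As that library was singled out for its high level, the value without it is a description. Wild-type tumour-bearing livers had 1.01, 4.29 and 18.1 CPM (lowest, median, highest), and the change from wild-type controls was 0.51 ± 0.99 (adjusted p = 0.738). Igf2 and H19 thus shared their highest library, but in Mdr2-/- controls H19 was at 7.42 to 59.3 TPM while Igf2 was at 0.376 to 1.72 TPM.

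**Figure D2:**
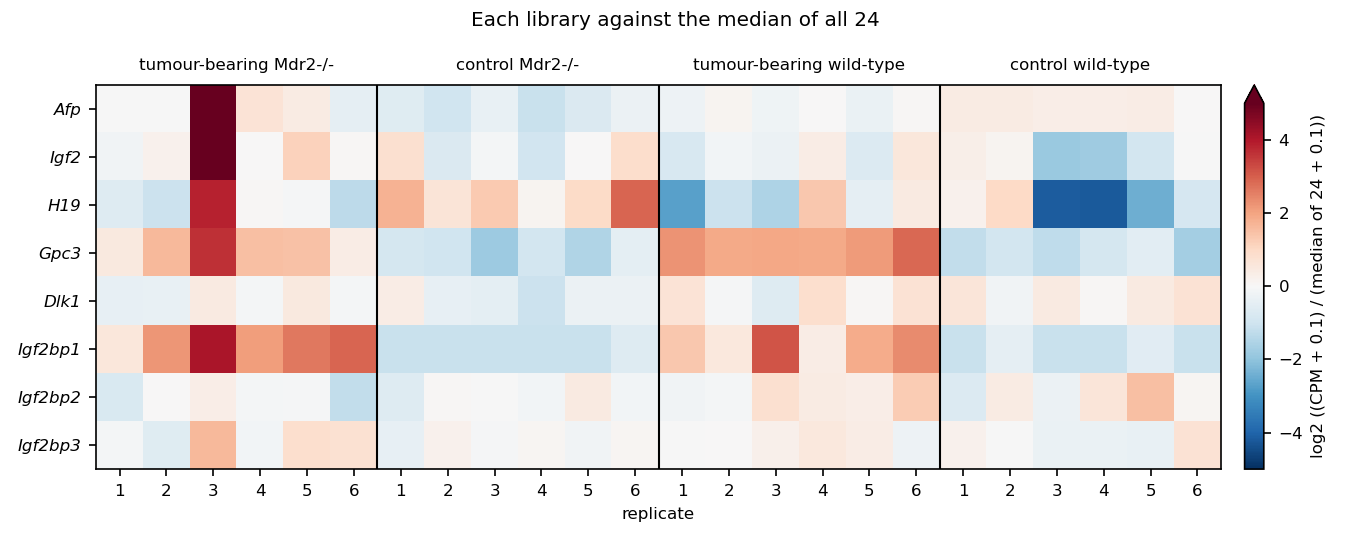
Each of the 8 tested genes in each library as log2 of its CPM (plus 0.1) over the median of all 24 libraries (plus 0.1), with libraries by group and replicate. Replicate 3 of the Mdr2-/- tumour-bearing livers is the highest of the 24 for Afp, Igf2, H19, Gpc3, Igf2bp1 and Igf2bp3, and wild-type control replicates 3 and 4 are the lowest for H19.

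Replicate 3 held the highest level of most of these genes. It was the highest of 24 libraries for 6 of the 9 genes, at 44.5 times the next library for Igf2, 31.1 times for Afp, 1.95 times for H19, 1.93 times for Igf2bp1, 1.8 times for Igf2bp3 and 1.71 times for Gpc3. It ranked 9 for Dlk1, 8 for Igf2bp2 and 15 for Lin28b. The share of all genes with their highest level in replicate 3 is not given here, so this count of members is a description. Of 10483 genes at 5 CPM or more in replicate 3, 7 were at least 2 times as high as in the next library, and 2 of them, Igf2 and Afp, at least 4 times. The other libraries had 0 to 39 genes at 2 times the next. After Igf2 and Afp came Klhl13, a substrate adaptor of a ubiquitin ligase needed for cell division, at 101 against 35.0 CPM, then Bex1, Fgfbp1, Rrm2 and Aurkb at 2.03 to 2.72 times. Rrm2 and Aurkb serve DNA synthesis and mitosis.

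Its measures as a library were those of its group. The 25635085 counts, the nuclear non-coding share of 5.93% (4.6 to 7.95% in the group) and the mitochondrial share of 3.58% (2.74 to 5.75%) were within the range of the group. Its hepatocyte markers summed to 65500 CPM, rank 20 of 24, and its cholangiocyte markers to 1940 CPM, rank 4. Alb was at 33600 CPM, against 17400 to 35300 CPM over its group. Meg3, the imprinted non-coding RNA next to Dlk1, was at 6.99 CPM there, the lowest of its group.

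The remaining genes stayed low. Dlk1 was at 0.221, 0.295 and 0.485 CPM (lowest, median, highest) in Mdr2-/- tumour-bearing livers, against 0.1, 0.231 and 0.45 CPM in Mdr2-/- controls, and at 0.17, 0.453 and 0.649 CPM in tumour-bearing wild-type livers, against 0.274, 0.477 and 0.591 CPM in wild-type controls. These are 3 to 17 counts a library. The tumour effects were 0.45 ± 0.35 in Mdr2-/- (adjusted p = 0.317) and -0.06 ± 0.34 in wild-type livers (adjusted p = 0.919). Dlk1 was lower in Mdr2-/- than in wild-type controls by the fit, at -0.89 ± 0.36 (adjusted p = 0.0396), with 5 of 6 Mdr2-/- controls below all 6 wild-type controls. This call was lost with total library size, without a filter, on both TPM scales and on leaving out any 1 of 9 control libraries.

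Igf2bp2 and Igf2bp3 were called in none of the comparisons in the edgeR fit of all libraries with TMM scaling and no covariate. Igf2bp2 averaged 0.638 ± 0.256 CPM in Mdr2-/- tumour-bearing livers and 0.728 ± 0.198 CPM in Mdr2-/- controls, and 1.12 ± 0.494 CPM in tumour-bearing wild-type livers and 1.07 ± 0.671 CPM in wild-type controls (SD, n = 6 each). Igf2bp3 averaged 1.39 ± 0.897 CPM in Mdr2-/- tumour-bearing livers and 0.868 ± 0.149 CPM in Mdr2-/- controls, and 1.02 ± 0.225 CPM in tumour-bearing wild-type livers and 0.914 ± 0.343 CPM in wild-type controls. Its change in Mdr2-/- livers was 0.68 ± 0.31 (adjusted p = 0.093), and 0.30 ± 0.28 without replicate 3, which was at 2.97 CPM. With total library size it was called, at 0.93 ± 0.33 (adjusted p = 0.0296). Igf2bp2 was called lower in Mdr2-/- than in wild-type controls with the nuclear non-coding covariate (-0.80 ± 0.30, adjusted p = 0.029). Igf2bp3 overlaps Malsu1, a mitochondrial ribosome assembly factor, on the other strand, and had 680 counts over all libraries against 9622 for Malsu1, so some of its reads may belong to that gene. Malsu1 was at 13.5 CPM in replicate 3, near the lowest of its group (13.0 to 22.8 CPM).

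Lin28b was at or near the limit of detection and was not tested. It had 0 to 5 counts a library and 30 counts in all, 7 of them in Mdr2-/- tumour-bearing livers, 6 in Mdr2-/- controls, 4 in tumour-bearing wild-type livers and 13 in wild-type controls. A count of 3 was taken as the floor, and no fold change is given. Its paralog Lin28a had 7 counts in all.

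Over the list, 4 of the 8 tested genes were called in Mdr2-/- livers, all higher (Afp, Igf2, Gpc3 and Igf2bp1), where 34.8% of all 17216 genes were called and 17.9% were called higher. In wild-type livers 2 of 8 were called, Gpc3 and Igf2bp1, where 28.4% of all genes were called and 16.9% were called higher. Leaving Igf2bp1 out for the reason given with its values, these counts are 3 of 7 and 1 of 7. Gpc3 and Igf2bp1 were also the members that were higher with no overlap of the groups, for Igf2bp1 as a description only. Of all genes tested, 7.38% were so in Mdr2-/- and 7.27% in wild-type mice. For the difference of the tumour effects, 1 of 8 was called (Afp, higher), where 25.3% of all genes were called and 11.9% were called higher. Between the genotypes 1 of 8 was called in controls (Dlk1, lower), where 50.5% of all genes were called and 24.3% were called lower. In tumour-bearing livers 2 of 8 were called (Afp and Igf2, higher in Mdr2-/-), where 11.1% of all genes were called and 7.13% were called higher.

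Without replicate 3 the members called were partly others. That library was left out here because it was the highest for most members, so these calls are a description. In Mdr2-/- livers Afp, Gpc3 and Igf2bp1 were called higher and H19 lower, where 34.5% of all genes were called. The call of Igf2bp1 was bound to follow from the filter, as said with its values. For the difference of the tumour effects Afp and Gpc3 were called, where 26.2% of all genes were. Between genotypes Afp, H19 and Dlk1 were called in controls, where 49.9% of all genes were, and Gpc3 in tumour-bearing livers, where 8.73% were.

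**Figure D3:**
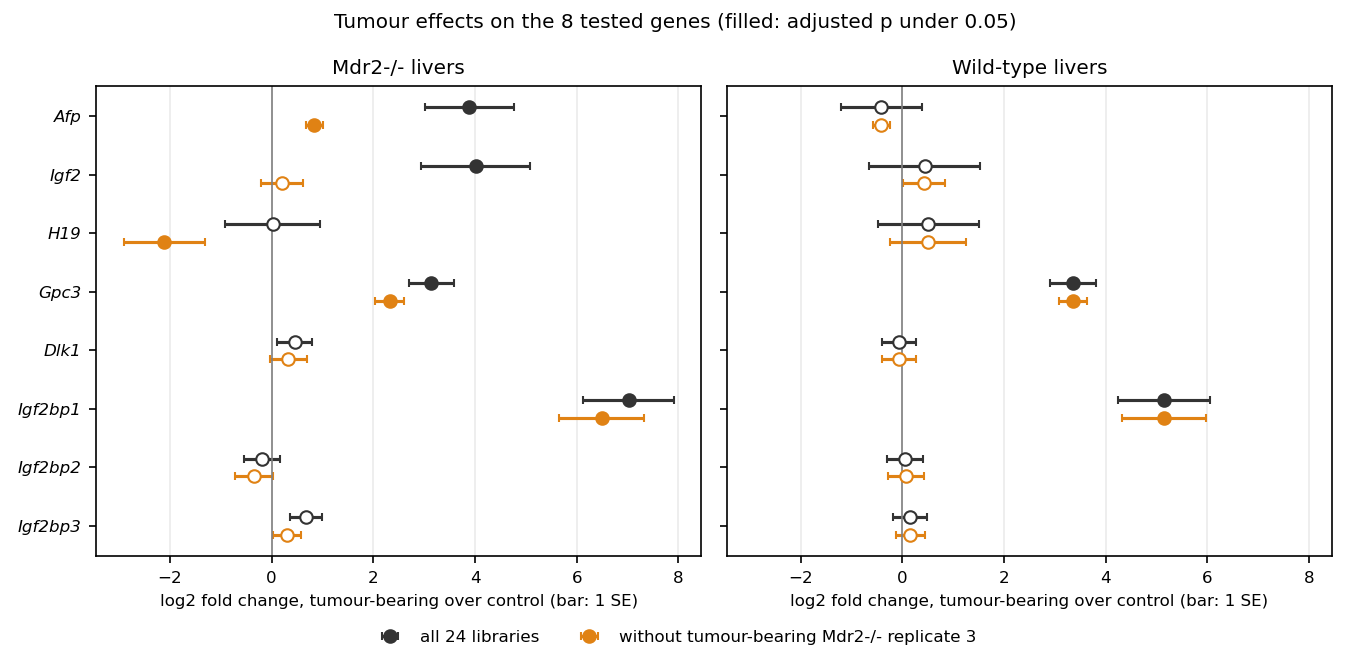
Log2 fold change of tumour-bearing over control livers, with its SE as a bar, for the 8 tested genes, in Mdr2-/- livers on the left and wild-type livers on the right. Black points use all 24 libraries and orange points leave out replicate 3 of the Mdr2-/- tumour-bearing livers, with filled points called. Igf2 moves to 0.20 and H19 to -2.11 in Mdr2-/- livers, while Gpc3 remains called. Igf2bp1 is drawn as called too, which was bound to follow from the filter on low counts.

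Genes whose levels ran most like those of a member over the 24 libraries were found by Pearson r of log2 CPM, given as a description. These libraries share groups and replicate 3, so r mixes group differences with that library. For Gpc3 they were Krt4, a keratin of stratified epithelium (r = 0.951), Fads3 (0.944) and Apela (0.93). For Igf2bp1 they were Cryab, a small heat shock protein (r = 0.93), Gprc5b (0.917) and Abcc5 (0.913). Without replicate 3 these values were 0.969, 0.958 and 0.935 for Gpc3 and 0.922, 0.915 and 0.896 for Igf2bp1. Krt4 was at 0.295 to 1.87 CPM in Mdr2-/- tumour-bearing livers and 0.0668 to 0.176 CPM in Mdr2-/- controls, and at 1.46 to 3.56 CPM in tumour-bearing wild-type livers and 0 to 0.128 CPM in wild-type controls. The likeness of Afp and Igf2 to Klhl13 rested on replicate 3, with r = 0.759 and 0.779 over 24 libraries and 0.124 and 0.304 over the other 23. For H19, Myom3 led with r = 0.817, and 0.806 without replicate 3.

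Counts over the lists of related genes stand against the share of all tested genes, of which 17.9% were called higher and 17% lower in Mdr2-/- livers, and 16.9% higher and 11.5% lower in wild-type livers. In the IGF system around Igf2, 3 of 16 tested genes rose and 5 fell in Mdr2-/- livers, and 3 rose and 4 fell in wild-type livers. The genes that rose are thus about as frequent as over all genes. Stc2, a secreted inhibitor of the protease that frees IGFs from their binding proteins, rose by 2.56 ± 0.43 in Mdr2-/- (adjusted p = 0.00015) and 3.11 ± 0.52 in wild-type livers (adjusted p = 8.88e-05). The wild-type controls hold only 18 counts of Stc2, so its wild-type change is given as a description. Igfals, the liver protein that keeps IGFs in circulation, was lower in tumour-bearing livers, at 52.7 CPM on average against 125 CPM in Mdr2-/- controls, and at 54.4 CPM against 149 CPM in wild-type controls, both called. With the nuclear non-coding covariate the Mdr2-/- change of Igfals was -0.57 (adjusted p = 0.298). Igf1, the growth factor of the adult liver, gave -0.49 ± 0.20 in Mdr2-/- livers (adjusted p = 0.0548) and fell by 1.13 ± 0.20 in wild-type livers (adjusted p = 0.00015). Igf2r, which removes Igf2, gave -0.06 ± 0.16 in Mdr2-/- and -0.12 ± 0.16 in wild-type livers, not called, and its sign turned under other scalings. Igf1r, the signalling receptor, gave 0.36 ± 0.24 in Mdr2-/- (adjusted p = 0.237) and rose by 0.64 ± 0.24 in wild-type livers (adjusted p = 0.0494), a call lost on leaving out any 1 of 14 libraries (0.48 to 0.70).

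Other imprinted genes rose more often than they fell in Mdr2-/- livers, 9 of 21 tested against 1, and were divided in wild-type livers, 5 against 4. The median log2 fold change of the list was 0.43 in Mdr2-/- and 0.18 in wild-type livers, against 0.04 and 0.03 over all tested genes. Grb10, an adaptor that dampens insulin and IGF signalling, rose in both, by 2.22 ± 0.27 in Mdr2-/- (adjusted p = 4.27e-06) and 0.88 ± 0.27 in wild-type livers (adjusted p = 0.015, and 0.066 without wild-type tumour-bearing replicate 3). Meg3 and Peg3, a zinc-finger gene of a fetal growth network, went in opposite directions. Meg3 rose by 0.81 ± 0.29 in Mdr2-/- (adjusted p = 0.0316) and fell by 1.04 ± 0.29 in wild-type livers (adjusted p = 0.00836). Its rise in Mdr2-/- livers was not called on leaving out any 1 of 8 libraries (0.68 to 0.79) or with the nuclear non-coding covariate (0.31, adjusted p = 0.705). Peg3 rose by 0.88 ± 0.19 in Mdr2-/- (adjusted p = 0.0016) and fell by 0.99 ± 0.19 in wild-type livers (adjusted p = 0.000384), with a difference of 1.87 (adjusted p = 4.54e-05). Peg3 averaged 25.2 CPM in Mdr2-/- tumour-bearing livers and 13.7 CPM in Mdr2-/- controls, and 28.2 CPM in tumour-bearing wild-type livers and 55.9 CPM in wild-type controls.

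Of 19 tested other fetal liver and oncofetal genes, 9 rose in Mdr2-/- livers, and 9 rose and 2 fell in wild-type livers. The median log2 fold change of the list was 1.24 in Mdr2-/- and 0.82 in wild-type livers. In Mdr2-/- livers edgeR called 0 of them lower, as did DESeq2 and voom, and 0 were lower at an unadjusted p under 0.05. Without replicate 3, 7 rose in Mdr2-/- and 8 in wild-type livers. Spink1, a trypsin inhibitor secreted by tumours, was at 2.36, 6.39 and 14.1 CPM in Mdr2-/- tumour-bearing livers, against 0.225, 0.377 and 1.74 CPM in Mdr2-/- controls, and at 5.63, 8.16 and 10.5 CPM in tumour-bearing wild-type livers, against 0, 0.0653 and 0.794 CPM in wild-type controls. The groups did not overlap in either genotype. Spink1 held 108 counts in the Mdr2-/- controls and 20 in the wild-type controls, and reached the filter through its tumour-bearing libraries. Its separation and its place among the genes that rose are thus a description. Sox4, a transcription factor of progenitor cells, rose by 1.52 ± 0.24 in Mdr2-/- (adjusted p = 0.0001) and 3.29 ± 0.27 in wild-type livers (adjusted p = 3.2e-09). Scd2, the desaturase of the fetal liver, rose by 2.17 ± 0.25 in Mdr2-/- livers (adjusted p = 2.35e-06) and gave 0.49 ± 0.24 in wild-type livers (adjusted p = 0.133). Tet1, which oxidises methylated cytosine, rose by 1.72 ± 0.27 in Mdr2-/- and 0.82 ± 0.27 in wild-type livers (adjusted p = 8.13e-05 and 0.0279). The list holds epithelial genes such as Epcam, also a bile duct marker, and by edgeR 7 of 10 bile duct markers rose in each genotype. DESeq2 called 7 of the 10 higher in Mdr2-/- and 8 in wild-type livers, and voom 8 and 3.

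Transcription factors that control Afp and other liver genes fell or did not pass. Of 15 tested, 8 fell in Mdr2-/- and 6 in wild-type livers, with medians of -0.51 and -0.40. EdgeR, DESeq2 and voom each called 0 of them higher in either genotype, and at an unadjusted p under 0.05, 0 were higher in Mdr2-/- and 1 in wild-type livers. Hnf4a, a regulator of hepatocyte identity, fell by 1.12 ± 0.25 in Mdr2-/- livers (adjusted p = 0.00225) and gave -0.13 ± 0.25 in wild-type livers. With the nuclear non-coding covariate its Mdr2-/- change was -0.26 (adjusted p = 0.583). Hnf4a was at 316 CPM in replicate 3, the highest of its group. Zhx3, a relative of Zhx2, fell by 0.81 ± 0.25 in Mdr2-/- livers (adjusted p = 0.0157) and gave -0.29 ± 0.25 in wild-type livers (adjusted p = 0.408). Its Mdr2-/- call was lost with the nuclear non-coding covariate (0.13, adjusted p = 0.79) and without Mdr2-/- control replicate 6 (-0.63, adjusted p = 0.0564). Foxa2, a pioneer factor of the liver, fell by 0.64 ± 0.22 in Mdr2-/- and 1.07 ± 0.22 in wild-type livers (adjusted p = 0.0249 and 0.000634). Of the albumin family 3 of 3 fell in Mdr2-/- livers and 2 of 3 in wild-type livers, and Alb fell by 1.10 ± 0.17 in Mdr2-/- and 0.78 ± 0.17 in wild-type livers (adjusted p = 9.96e-05 and 0.00159). The Mdr2-/- call of Afm (-0.40) was lost on leaving out any 1 of 6 libraries (-0.41 to -0.30), with total library size (-0.18, adjusted p = 0.21) and with upper-quartile factors (-0.29, adjusted p = 0.109). Of 12 hepatocyte markers, 8 fell in Mdr2-/- and 9 in wild-type livers beside these changes.

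In the let-7 axis beyond Lin28b, 2 of 16 tested genes rose and 3 fell in Mdr2-/- livers, and 2 rose and 1 fell in wild-type livers. These shares are about those over all genes or below them. The wild-type rises include that of Igf1r, a call lost on leaving out any 1 of 14 libraries. Mycn, a fetal oncogene and let-7 target, rose by 1.36 ± 0.33 in Mdr2-/- and 1.01 ± 0.33 in wild-type livers (adjusted p = 0.00335 and 0.0238), the wild-type call being lost on leaving out any 1 of 4 libraries (0.81 to 0.90). Hmga2, a chromatin protein and a classical let-7 target, gave 0.15 ± 0.25 in Mdr2-/- and 0.17 ± 0.26 in wild-type livers, neither called. Mir99ahg, a host transcript of a let-7 member, rose by 1.67 ± 0.32 in Mdr2-/- livers (adjusted p = 0.000527) and gave -0.18 ± 0.31 in wild-type livers. Ccnd1, the G1 cyclin, fell by 1.30 ± 0.21 in Mdr2-/- livers (adjusted p = 0.00011) and gave 0.13 ± 0.21 in wild-type livers. With the nuclear non-coding covariate the Mdr2-/- changes were 0.61 for Mir99ahg and -0.68 for Ccnd1 (adjusted p = 0.27 and 0.0654).

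Among the relatives of Gpc3, which are glypicans, syndecans and the sulfatases that edit their chains, 2 of 9 tested rose and 5 fell in Mdr2-/- livers, and 3 rose and 2 fell in wild-type livers. Gpc6 rose by 0.83 ± 0.26 in Mdr2-/- and 1.47 ± 0.27 in wild-type livers (adjusted p = 0.0187 and 0.00028). Gpc1 gave 0.10 ± 0.16 in Mdr2-/- livers and rose by 1.14 ± 0.17 in wild-type livers (adjusted p = 1.89e-05). Sdc1, the syndecan of epithelia, fell by 1.29 ± 0.18 in Mdr2-/- livers (adjusted p = 1.77e-05) and gave -0.28 ± 0.17 in wild-type livers. Sdc3 fell by 0.87 ± 0.27 in Mdr2-/- livers and rose by 0.79 ± 0.27 in wild-type livers (adjusted p = 0.0153 and 0.0289). The Mdr2-/- change became 0.02 (adjusted p = 0.981) with the nuclear non-coding covariate, and the wild-type change 0.48 (adjusted p = 0.127) without wild-type tumour-bearing replicate 6.

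**Figure D4:**
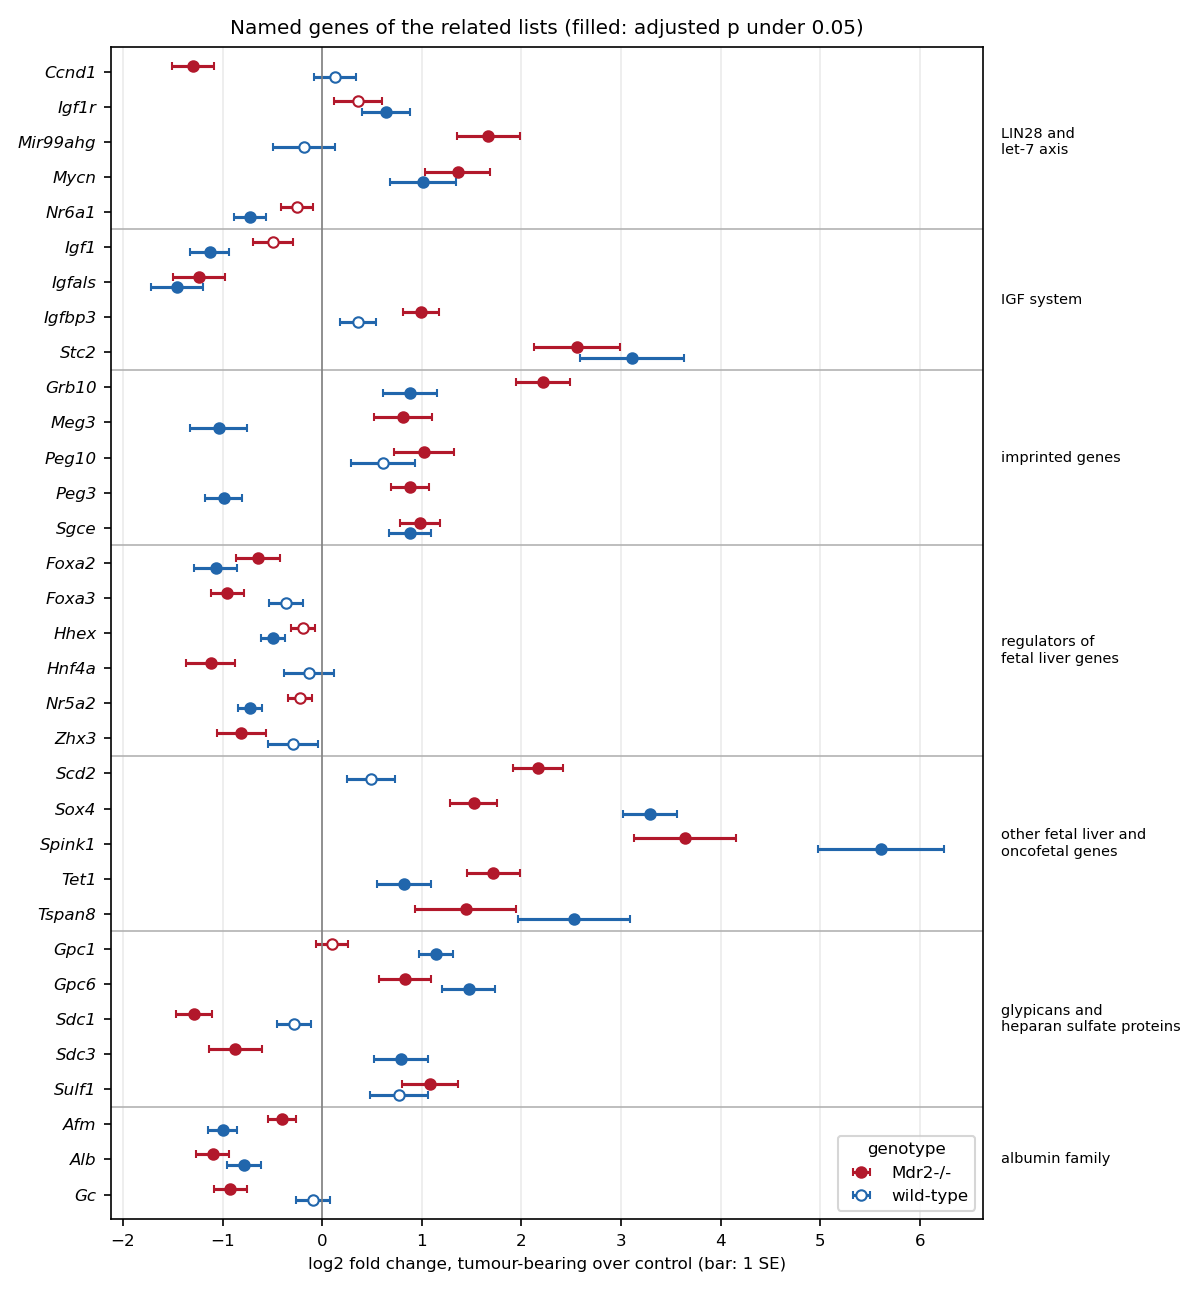
Log2 fold change of tumour-bearing over control livers (x axis, with its SE as a bar) of the named genes of 7 related lists, in Mdr2-/- livers in red and wild-type livers in blue, with filled points called. Meg3, Peg3 and Sdc3 lie on opposite sides of 0, Spink1 reaches 3.64 in Mdr2-/- and 5.61 in wild-type livers, and the 3 albumin family genes lie below 0 in both.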

How the data were processed

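Per the labels' protocols, ribosomal RNA was removed from total liver RNA by a kit named for bacteria, and both ends of each fragment were read. The authors deposited whole-number read counts for each gene, with no normalization, and TPM values, in which length is taken out. The submitters' processing notes name build mm39 and DESeq2 (no version), with aligner, counter, annotation and strand not given in the sources used here. Libraries were grouped by treatment label, and replicate numbers only name a library and pair nothing.

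The count test was edgeR's quasi-likelihood test (edgeR 4.0.16 in R 4.3.3, 2-sided, robust), with TMM scaling, 1 mean for each group and all 24 libraries. Low genes were left out by filterByExpr (minimum count 10). Of 49315 genes (174 without a symbol) 17216 were tested, and calls are at an adjusted p (Benjamini-Hochberg, over all of them) under 0.05. Tumour-bearing livers were set against controls within a genotype, these effects against each other, and Mdr2-/- against wild-type livers within a treatment. CPM use TMM-scaled totals, and the biological coefficient of variation was 0.272. Likeness used log2 CPM with a prior count of 2. The count ratio of Igf2bp1 carries an exact 95% interval. PCR duplicates were not marked, so intervals and the floor of 3 counts cover counting error only.

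The members and lists were chosen with earlier results of these data known. Named are the 9 members, up to 3 called genes of each list and tumour comparison with the largest change at 1 CPM or more, a fixed set (Lin28a, Hmga2, Igf1r, Igf2r, Meg3, Zhx2, Zbtb20, Alb, Abcb4), the 3 genes most like each member at 1 CPM or more, and the genes highest in a library that held most of a group's level. Not every such gene is printed. A gene of the list of liver regulators is not reported here and is left out of that list's counts. Gm43449, Malsu1 and Igf2os, which overlap members, and the replicate 3 values of Hnf4a, Zhx2 and Meg3 were added after values were seen.

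Other settings tried were scaling by total library size, upper-quartile factors or DESeq2 size factors, no filter, a minimum count of 50, DESeq2 1.42.0, voom with quality weights and log2(TPM + 1) or log2(TPM + 0.1) in limma 3.58.1, only the libraries compared, no robust estimation, the share of 7 nuclear non-coding RNAs or the range of the title number (below 2000 or not) as a covariate, and fits without each library or 2 that stood apart. The edgeR script was tested on simulated data. Annotation of neighbours came from GENCODE M21 and sequences from RefSeq, both of GRCm38, read in Python 3.11.15 with pandas 2.3.3, numpy 2.4.6, scipy 1.17.1 and matplotlib 3.10.9.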

Additional observations from a re-analysis of the deposited data

Results flagged for a closer look

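In 36 sets of 6 libraries (9 genes in 4 groups), 8 had a highest or lowest library far from the others by Dixon's test. Its nominal rate of about 1 in 20 holds for normally distributed values. The test was run on CPM without a log, where low genes are skewed, so that rate does not measure chance here. Of these, 4 were Mdr2-/- tumour-bearing replicate 3, at 564 CPM for Afp (next 18.2), 202 CPM for Igf2 (next 4.53), 105 CPM for H19 (next 7.42) and 32.1 CPM for Gpc3 (next 7.8). Replicate 6 of the Mdr2-/- controls stood apart at 54.1 CPM for H19 (next 23.8), and at 0.0351 CPM for Igf2bp1. The latter is a single count where the other 5 had 0, which the test always flags. Replicate 6 of the wild-type tumour-bearing livers stood apart at 18.8 CPM for Gpc3 (next 12.1). Replicate 6 of the wild-type controls was low for Afp, at 11.2 CPM where the next was at 14.0.

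The tumour effect in Mdr2-/- minus that in wild-type livers passed edgeR's test for 16 of the genes named here. Over all genes tested 25.3% passed. Many of the named genes were picked for a large tumour effect, so their count cannot be set against that share. It was positive for Afp (4.30, adjusted p = 0.011), for the imprinted genes Peg3 (1.87), Meg3 (1.85) and Grb10 (1.34), for Mir99ahg (1.85), Scd2 (1.68), Afm (0.60) and Nr5a2 (0.51). It was negative for Sox4 (-1.77), Sdc3 (-1.66), Ccnd1 (-1.42), Gpc1 (-1.05), Sdc1 (-1.02), Hnf4a (-0.99), Zhx2 (-0.92) and Gc (-0.82). The range of the title number was uneven between groups, with 3 of 6 Mdr2-/- tumour-bearing livers, 4 of 6 Mdr2-/- controls, 0 of 6 wild-type tumour-bearing livers and 5 of 6 wild-type controls below 2000, and its part in these differences was not tested beyond the fit with it as a covariate.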

How the results depend on the processing

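The results concern 9 genes, few of them abundant, so depth limits Lin28b, Dlk1 and the Igf2bp genes, and no spread beyond 6 libraries a group is known. No paired analysis was possible because the labels give no replicate numbers shared between groups. Over the named genes, 13 of 27 calls in Mdr2-/- and 13 of 22 in wild-type livers were kept under all 38 alternatives, and the cause of the other changes was not tested. The number of members called was 4 for the tumour effect in Mdr2-/- livers, 2 with DESeq2 and with voom, and 4 to 5 on leaving out 1 library. In wild-type livers it was 2, but 1 with the stricter filter and on log2(TPM + 1), and 2 to 2 on leaving out 1 library. With only the libraries compared the 2 were Gpc3 and Afp (lower), and Igf2bp1 did not pass the filter. For the difference of these effects it was 1, but 0 with DESeq2, with voom, on both TPM scales and with the title number, and 1 to 2 on leaving out 1 library. Between genotypes in controls it was 1, but 0 with no filter or the stricter one, 2 with DESeq2, with voom, with only the libraries compared, without robust estimation and with the nuclear non-coding share, and 0 to 3 on leaving out 1 library. Between genotypes in tumour-bearing livers it was 2, but 1 with voom, 0 with DESeq2, on both TPM scales, with only the libraries compared and with the title number, and 1 to 2 on leaving out 1 library. DESeq2 gave no adjusted p for Afp and Igf2, which are out of its counts. The sign of some small changes turned. In Mdr2-/- livers H19 (0.02) was -0.02 with DESeq2 and its size factors, -0.09 with no filter, -0.91 with voom, -0.90 and -1.03 on log2(TPM + 1) and log2(TPM + 0.1), -0.03 with only the libraries compared and -0.21 with the title number. Igf2bp2 (-0.19) was 0.04 with total library size. Igf2r (-0.06) was 0.05 with upper-quartile factors, 0.17 with total library size, 0.01 with the stricter filter and 0.04 with voom and on both TPM scales. Zbtb20 (-0.13) was 0.01, 0.12 and 0.03 with upper-quartile factors, total library size and on both TPM scales. With the nuclear non-coding share Igf2bp2 was 0.71, Zhx3 0.13, Sdc3 0.02, Hmga2 -0.07, Igf2r 0.50 and Zbtb20 0.45. In wild-type livers the title number gave 0.67 for Afp and -0.08 for Hmga2, and leaving out Mdr2-/- tumour-bearing replicate 1 and wild-type tumour-bearing replicate 6 together gave -0.18 for Igf2bp2 and -0.08 for Zhx2. There Dlk1 (-0.06) was 0.21 with total library size, 0.03 and 0.11 on the TPM scales and 0.07 with the nuclear non-coding share, and Igf2r (-0.12) was 0.17, 0.12, 0.13 and 0.05 under the same settings. For the difference of the effects, the nuclear non-coding share gave 0.86 for H19, 0.29 for Gpc3 and 0.26 for Igf2bp2, leaving out those 2 libraries 0.14 for Gpc3 and 0.08 for Igf2bp2, and voom -0.01 for Igf2bp3. In controls Gpc3 (0.01) was -0.01 with DESeq2 and its size factors, -0.04 with upper-quartile factors, -0.06 with the stricter filter, -0.14 with voom and -0.30 with the nuclear non-coding share. Igf2bp2 was 0.01 on log2(TPM + 0.1), and Igf2bp3 (-0.07) was 0.24 with total library size, 0.07 with voom and on log2(TPM + 1), 0.28 on log2(TPM + 0.1) and 0.04 with the nuclear non-coding share. Between tumour-bearing livers Gpc3 (-0.21) was 0.03 with total library size and 0.15 without those 2 libraries. Leaving out 1 library at a time turned the sign of some changes, with these lowest and highest values. In Mdr2-/- livers they were -2.11 and 0.54 for H19, -0.01 and 0.29 for Hmga2, -0.13 and 0.02 for Igf2r, and -0.30 and 0.09 for Zbtb20. In wild-type livers they were -0.20 and 0.12 for Dlk1, -0.09 and 1.29 for H19, -0.18 and 0.45 for Igf2bp2, and -0.08 and 0.28 for Zhx2. For the difference they were -1.05 and 0.01 for Gpc3, -2.62 and 0.10 for H19, and -0.23 and 3.85 for Igf2. Between controls they were -0.14 and 0.18 for Gpc3 and -0.12 and 0.16 for Igf2bp3, and between tumour-bearing livers -0.41 and 2.31 for H19. Scaling moved all genes together. The median log2 change of all genes with total library size was 0.282 in Mdr2-/- and 0.327 in wild-type livers, 0.329 between controls and 0.228 between tumour-bearing livers, with upper-quartile factors 0.157 in Mdr2-/- livers, and on log2(TPM + 0.1) it was 0.15, 0.306, 0.449 and 0.252 in that same order of comparisons, against 0.039, 0.028, 0.03 and -0.019 with TMM. Genes called higher and lower were 5565 and 924 with total library size in Mdr2-/- livers (3074 and 2921 with TMM), and 5783 and 603 in wild-type livers (2915 and 1976). Between controls they were 7247 and 2325 (4512 and 4178), and between tumour-bearing livers 2668 and 259 (1228 and 689). With upper-quartile factors they were 4058 and 1967 in Mdr2-/- livers, and 2418 and 1784 for the difference (2042 and 2313). On log2(TPM + 0.1) they were 3927 and 953 in Mdr2-/- livers, 5071 and 498 in wild-type livers, 1314 and 2349 for the difference, 8403 and 1668 between controls and 2834 and 235 between tumour-bearing livers. Genes called in Mdr2-/- livers numbered 960 with the nuclear non-coding share, against 5995, and 2682 against 4355 for the difference. That share did not overlap between Mdr2-/- tumour-bearing livers and controls, so the fit cannot part it from the tumour effect. Between tumour-bearing livers 1917 were called, but 4120 with voom, 2927 with total library size, 3306 and 3069 on the TPM scales, and 1116, 1184 and 1232 without Mdr2-/- replicate 6, wild-type replicate 4 and wild-type replicate 2.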
